A study of Mus musculus with 14 samples.

Results

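Transcripts of 39 genes of the unfolded protein response and of the Atf4 stress response were followed in the RPE (retinal pigment epithelium), a pigmented monolayer that supports the photoreceptors. The genes came from a list of known pathway members, drawn up with earlier results of these data known, and its rule uses no measured value. All 39 were found by Ensembl identifier among 34452 mouse gene rows, and all 39 were abundant enough to be tested. They were read as 2 arms. The endoplasmic reticulum (ER) arm held 21 genes, of which 13 act in protein folding, 4 in ER-associated degradation and 4 in sensing. The Atf4 and serine synthesis arm held 18 genes, of which 6 are regulators, 7 are targets and 5 are enzymes of serine and one-carbon metabolism.

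The tissue came from 7 rd1 mice (FVB/N), which carry a loss-of-function mutation in Pde6b, at postnatal day 20. In each mouse both eyes had received, under the retina, an adeno-associated virus (AAV) that expresses green fluorescent protein (GFP) from the human Best1 promoter, a promoter active in the RPE. The eye called Nrf2 had also received an AAV that carries the human Nrf2 cDNA (NFE2L2) behind this promoter, and the eye called control had the GFP vector only. Libraries are named by treatment and mouse. The vectors had different capsids, and the Nrf2 eye carried more vector in all, so transgene and added vector cannot be told apart. RNA was released from the opened eyecup after the retina was lifted off, purified and amplified. The libraries used here include no group without a vector and none without rd1. In bulk RNA of this kind, fewer cells of a type and less RNA per cell cannot be told apart.

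As background, proteins that enter the ER are folded by chaperones such as Hspa5 (BiP) and by disulfide isomerases. When unfolded protein accumulates, the sensors Ern1 (IRE1), Atf6 and Eif2ak3 (PERK) raise chaperone and degradation genes, largely through the transcription factors Xbp1 and Atf6. PERK and other kinases phosphorylate eIF2, which lowers general translation while it favours translation of Atf4, and Atf4 raises genes of amino acid import, serine synthesis and feedback on eIF2. Nrf2 is the master regulator of antioxidant genes and acts through the antioxidant response element. The RPE is a secretory and phagocytic epithelium, and serine synthesis in it provides for glutathione and for the retina.

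The promoters of both arms are known for different short elements, and those found are shown so that the arms can be compared on sequence. RefSeq promoter windows (GRCm38.p6, 250 bases before to 50 bases after a gene's start, in all 300 bases) were at hand for 35 of the 39 genes, 18 of the ER arm and 17 of the Atf4 arm. No window was at hand for Hyou1, Manf, Atf6 and Slc7a5. Both strands were searched. The ER stress response element, CCAAT followed after 9 bases by CCACG, was present in 8 of the 18 ER genes and in 0 of the 17 Atf4 genes, against 0.119% of all 32851 windows. Of those 8 genes, Hspa5, Calr, Hsp90b1, Canx, Pdia6, Dnajc3 and Creld2 are folding genes and Syvn1 is a degradation gene. The matches follow, 5′ to 3′ on the matching strand, with the fixed bases in capitals.
Hspa5, chr2:34772025-34772043, plus strand: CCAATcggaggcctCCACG
Calr, chr8:84847075-84847093, plus strand: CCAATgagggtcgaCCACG
Hsp90b1, chr10:86705638-86705656, minus strand: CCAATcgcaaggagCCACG
Hsp90b1, chr10:86705533-86705551, plus strand: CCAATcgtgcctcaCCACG
Canx, chr11:50325800-50325818, minus strand: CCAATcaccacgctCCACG
Pdia6, chr12:17266491-17266509, plus strand: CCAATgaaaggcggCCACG
Dnajc3, chr14:118937827-118937845, plus strand: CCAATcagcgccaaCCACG
Creld2, chr15:88819520-88819538, minus strand: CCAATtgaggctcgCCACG
Syvn1, chr19:6046532-6046550, plus strand: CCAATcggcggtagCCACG

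The C/EBP-ATF response element, the composite element that Atf4 binds with C/EBP partners, was searched as TGATGNAA. It was present in 5 of the 17 Atf4 genes (Atf3, Trib3, Asns, Nupr1 and Vldlr) and in 1 of the 18 ER genes (Herpud1), against 3.97% of all windows. Each match is shown with 6 bases on either side, the fixed bases in capitals, and coordinates are those of the 8 motif bases.
Atf3, chr1:191183436-191183443, plus strand: acttggTGATGcAAgtgcga
Trib3, chr2:152344039-152344046, plus strand: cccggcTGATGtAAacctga
Asns, chr6:7693225-7693232, minus strand: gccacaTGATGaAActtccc
Nupr1, chr7:126625573-126625580, plus strand: cctgtcTGATGcAAtctggc
Vldlr, chr19:27216820-27216827, minus strand: gagcgcTGATGcAActattg
Herpud1, chr8:94386317-94386324, minus strand: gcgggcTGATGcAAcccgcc

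The unfolded protein response element TGACGTG was present in 1 ER gene (Hspa5) and in 0 Atf4 genes, against 2.01% of windows. The antioxidant response element core, TGACNNNGC, was present in 5 ER genes and in 6 Atf4 genes, against 12.4% of windows. The 6 Atf4 genes were Cebpb, Sesn2, Ppp1r15a, Psph, Phgdh and Asns, and the 5 ER genes were Pdia3, Calr, Herpud1, Ern1 and Sdf2l1. The cores of the 3 Atf4-arm genes with the smallest p-values are shown in the same way. A match is a description of letters and not evidence of binding, and the absence of a match says only that these letters are not in this window.
Cebpb, chr2:167688908-167688916, plus strand: ccagcgTGACgcaGCccgttg
Sesn2, chr4:132510484-132510492, minus strand: gcgggcTGACagaGCcgggcg
Ppp1r15a, chr7:45526257-45526265, plus strand: atacccTGACgcgGCgctgtg

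Total counts were 16548349 to 50543008 per library, the lowest in Nrf2 2. Values below are CPM, counts scaled to a library of 1000000 after TMM scaling. The vector transcript NFE2L2 measured 0.987 to 168 CPM in 6 control libraries and 4903 to 9826 CPM in 6 Nrf2 libraries. The library labelled control 3 held 1160 CPM and the library labelled Nrf2 4 held 1146 CPM, so these libraries stood between their groups. They were also close to each other in summed markers of macrophages (361 and 362 CPM), fibroblasts (699.8 and 684.5 CPM) and skeletal muscle (217 and 214 CPM). Sums for RPE (15911 and 15016 CPM), cones (41.2 and 37.8 CPM), plasma cells (651 and 648 CPM) and blood (1138 and 1086 CPM) were close as well. Those for endothelium (85.6 and 97.9 CPM) and rods (19.8 and 23.9 CPM) were less so. Results are therefore given with and without mice 3 and 4. Where mouse 4 alone goes the other way below, its Nrf2 value is from this library. Of 10 RPE markers, Rpe65 measured 135 to 2099 CPM and Rgr 1474 to 10718 CPM over the 14 libraries, while mouse Best1 stayed at 0.278 to 3.68 CPM. Rpe65 was the 1 RPE marker past the threshold, at a log2 fold change of -2.17 (adjusted p 0.0199). Summed RPE markers were 6493 to 24911 CPM in control and 12344 to 29829 CPM in Nrf2 eyes, with control 5 lowest, and Ttr, which reached 16422 CPM, weighs heavily in these sums. By single genes 3 of the 10 RPE markers were above 0 and 7 below, with a median log2 fold change of -0.27. Photoreceptor marker sums had the higher median in control eyes, with overlapping ranges. The 8 cone markers summed to 41.2, 329 and 918 CPM (lowest, median, highest) in control and 18.4, 32.2 and 94.9 CPM in Nrf2 eyes, with 2 of 8 past the threshold (Opn1sw at -5.12 and Gnat2 at -1.69, log2) and none at 0 in any library. The 8 rod markers summed to 19.8, 96.3 and 407 CPM in control and 6.81, 11.1 and 79.5 CPM in Nrf2 eyes, with 0 of 8 past the threshold (Rcvrn at 0 in 1 library).

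One of the 39 genes passed the threshold of an adjusted p of 0.05 between Nrf2 and control eyes (2.56%), against 559 of 16289 genes tested, or 3.43%. That gene was Cebpb, a C/EBP transcription factor, and it rose, where 2.94% of all genes tested were called higher. The 10 members with an unadjusted p under 0.05 compare with 18.1% of all genes. The groups overlapped for all 39 members, while 1.56% of the genes tested had groups that did not overlap. The ER arm had 0 called of 21, a median log2 fold change (Nrf2 over control) of 0.11 and a range of -0.18 to 0.39. The Atf4 arm had 1 called of 18, a median of 0.04 and a range of -1.08 to 1.01. The median over all genes tested was -0.04. At an unadjusted p under 0.05 stood 2 ER genes and 8 Atf4-arm genes.

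**Figure D1:**
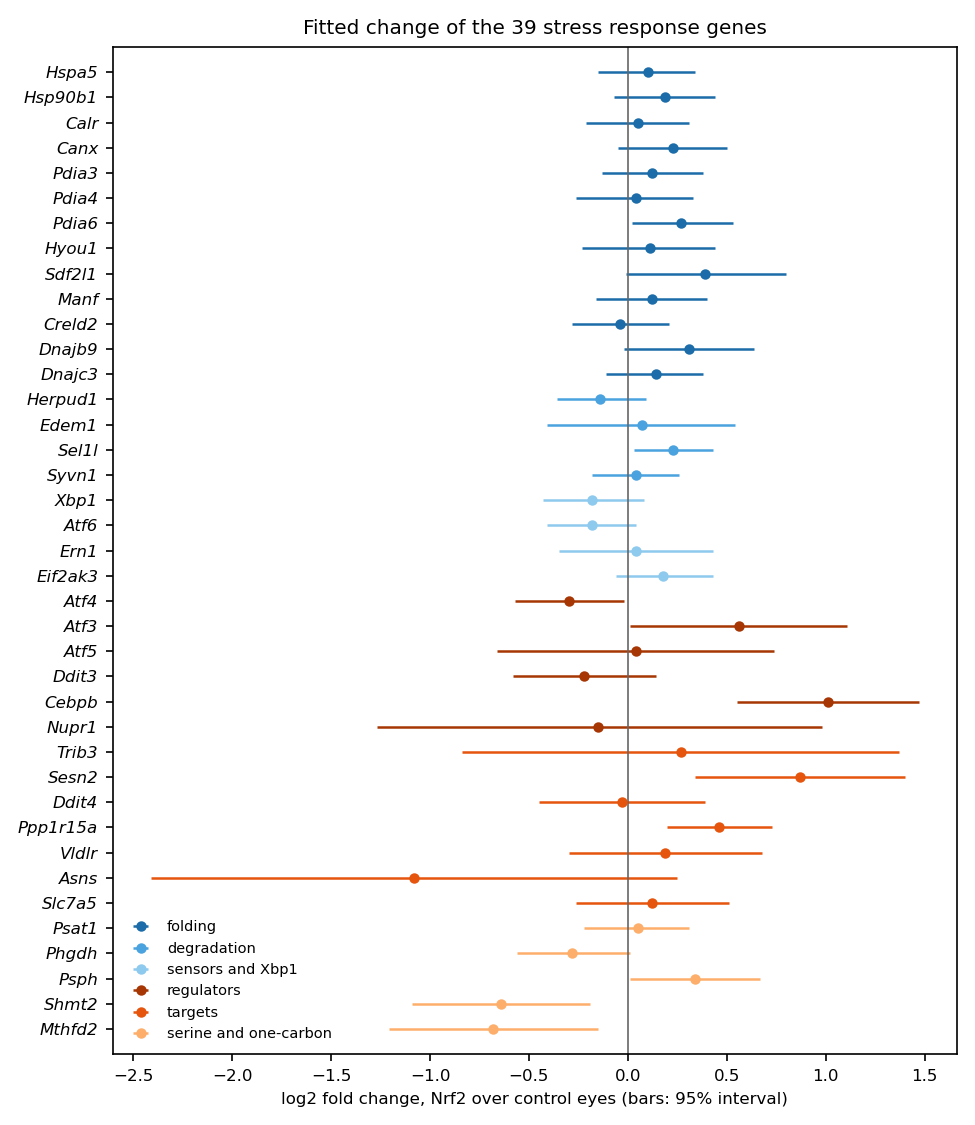
Fitted log2 fold change of each of the 39 genes, Nrf2 over control eyes, from the edgeR fit with mouse as a block (points) and its 95% confidence interval (bars), coloured by role. Blue ER genes sit between -0.18 and 0.39 with short bars, and orange Atf4-arm genes spread from -1.08 for Asns to 1.01 for Cebpb with longer bars.

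Precision differed between the arms. The 95% interval of the fold change lay wholly within a log2 change of 1 either way for all 21 ER genes and within 0.5 for 16 of them, against 58.0% and 25.3% of all genes tested. For the Atf4 arm 10 of 18 genes were held within 1 and 2 of 18 within 0.5. The median standard error (SE) was 0.11 in the ER arm, 0.20 in the Atf4 arm and 0.22 over all genes. The SD of the 7 within-mouse differences had a median of 0.24 in the ER arm, 0.50 in the Atf4 arm and 0.58 over all genes tested. Genes were not matched for level in this comparison. Mean levels ran from 14.6 CPM (Ern1) to 834 CPM (Calr) in the ER arm. Those of the Atf4 arm ran from 3.25 CPM (Atf5) to 332 CPM (Phgdh). The part of level in the precision was not tested.

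Among the 13 folding genes 12 had a fold change above 0 and 0 passed the threshold, with a median of 0.12. Hspa5 (ENSMUSG00000026864, chr2:34771970-34777547, plus strand) is the Hsp70 chaperone of the ER and its release from the sensors opens the response. It measured 771, 872, 751, 682, 637, 573 and 880 CPM in control eyes of mice 1 to 7 and 907, 891, 751, 734, 720, 648 and 844 CPM in their Nrf2 eyes. The ranges overlapped almost entirely, and mouse 6 was lowest in both groups. The fitted log2 fold change was 0.10 (SE 0.11, 95% interval -0.15 to 0.34, adjusted p 0.663), with the Nrf2 eye higher in 6 of 7 mice.

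Pdia6 (ENSMUSG00000020571, chr12:17266545-17284770, plus strand), a disulfide isomerase that also attenuates IRE1 and PERK, had the smallest p of the folding genes. It measured 293, 358, 339, 319, 267, 266 and 354 CPM in control eyes 1 to 7 and 428, 346, 424, 326, 372, 363 and 384 CPM in Nrf2 eyes. Nrf2 eyes of 5 mice lay above the highest control eye, and those of mice 2 and 4 lay within the control range. Its log2 fold change of 0.27 (SE 0.11, adjusted p 0.25, higher in 6 of 7 mice) did not pass. Sdf2l1, a BiP cofactor, had the largest value of the arm at 0.39 (SE 0.18, adjusted p 0.286), with control eyes at 26.2, 32.7 and 41.9 CPM (lowest, median, highest) and Nrf2 eyes at 29.2, 46.2 and 63.8 CPM.

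The other 10 folding genes had log2 fold changes of -0.04 to 0.31, and 0 of them passed. Hsp90b1 (Grp94), the ER Hsp90, was higher in the Nrf2 eye of 7 of 7 mice yet by a log2 fold change of only 0.19 (adjusted p 0.412). The lectin chaperones Canx and Calr had 0.23 (adjusted p 0.366) and 0.05 (adjusted p 0.864), the disulfide isomerases Pdia3 and Pdia4 had 0.12 (adjusted p 0.584) and 0.04 (adjusted p 0.909), and the BiP exchange factor Hyou1 had 0.11 (adjusted p 0.743). The BiP co-chaperones Dnajb9 and Dnajc3 had 0.31 (adjusted p 0.306) and 0.14 (adjusted p 0.538). The secreted stress factors Manf and Creld2 had 0.12 (adjusted p 0.645) and -0.04 (adjusted p 0.886). A processed pseudogene of Calr exists, and estimated counts can divide reads between the copies.

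Per length, ER chaperones were the most abundant of the 39 transcripts. Calr reached 289 CPM per kb of exon over the 14 libraries, Pdia3 182, Hspa5 180.0, Hsp90b1 128 and Canx 123 CPM per kb. Among Atf4-arm genes the serine enzyme Phgdh was the highest at 133 CPM per kb, followed by Cebpb at 54.0 CPM per kb. The lowest were Trib3 at 1.59, Atf5 at 1.63, Mthfd2 at 1.73 and the sensor Ern1 at 1.79 CPM per kb.

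Of the 4 degradation genes 0 passed, with a median log2 fold change of 0.05. Sel1l (ENSMUSG00000020964, chr12:91806043-91849157, minus strand), the adaptor of the ER ubiquitin ligase Syvn1 (Hrd1), had the smallest p of the arm. It measured 154, 151, 145, 120, 125, 133 and 128 CPM in control eyes 1 to 7 and 189, 143, 172, 139, 164, 146 and 165 CPM in Nrf2 eyes. Nrf2 eyes of 4 mice lay above the highest control eye, and mouse 2 alone was lower in its Nrf2 eye. The change of 0.23 on the log2 scale (SE 0.09, 95% interval 0.03 to 0.43) had an adjusted p of 0.218, and without mice 3 and 4 the same value had one of 0.34. Syvn1 itself had 0.04 (adjusted p 0.875), Edem1, a mannose-trimming factor, 0.07 (adjusted p 0.902), and Herpud1, a scaffold of the ligase complex, -0.14 (adjusted p 0.491).

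The sensors and Xbp1 had a median log2 fold change of -0.07 and 0 of 4 passed. Atf6 (ENSMUSG00000026663, chr1:170704674-170867771, minus strand), the sensor that is itself a transcription factor, measured 51.1, 47.9, 52.4, 43.8, 55.7, 48.7 and 51.0 CPM in control eyes 1 to 7 and 44.0, 40.2, 45.6, 52.6, 42.4, 40.7 and 42.6 CPM in Nrf2 eyes. Mouse 4 went against the other 6 mice, and the fit gave -0.18 (log2, SE 0.10, adjusted p 0.359). Xbp1 (ENSMUSG00000020484, chr11:5520659-5525893, plus strand), whose messenger is spliced by IRE1, measured 184, 242, 214, 199, 225, 256 and 247 CPM in control and 194, 164, 192, 219, 222, 189 and 204 CPM in Nrf2 eyes. Ranges overlapped and the fit gave -0.18 (log2, SE 0.11, adjusted p 0.441), in counts per gene that do not separate the spliced from the unspliced messenger. The kinases Ern1 and Eif2ak3 had 0.04 (adjusted p 0.926) and 0.18 (adjusted p 0.41).

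In the Atf4 arm the regulators had values on both sides of 0. Atf4 (ENSMUSG00000042406, chr15:80255184-80257541, plus strand), the transcription factor of the arm, measured 83.9, 82.8, 72.0, 68.3, 72.3, 83.8 and 79.0 CPM in control eyes 1 to 7 and 64.4, 43.6, 65.9, 69.5, 63.3, 62.5 and 75.0 CPM in Nrf2 eyes. Nrf2 eyes of 5 mice lay below the lowest control eye, Nrf2 2 lay lowest, and mouse 4 alone was slightly higher in its Nrf2 eye. The log2 fold change was -0.30 (SE 0.12, 95% interval -0.57 to -0.02, unadjusted p 0.0368, adjusted p 0.24), and -0.39 without mice 3 and 4 (adjusted p 0.176). Since Atf4 is regulated in large part by translation, its messenger level does not measure its protein. Ddit3 (CHOP; ENSMUSG00000025408, chr10:127290774-127296288, plus strand), the regulator linked to stress-induced death, measured 30.7, 22.4, 21.5, 30.8, 19.7, 15.3 and 24.6 CPM in control and 18, 21.2, 17.1, 21.6, 14.6, 20.6 and 27.2 CPM in Nrf2 eyes. The groups overlapped throughout (log2 fold change -0.22, SE 0.16, adjusted p 0.497).

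Cebpb (ENSMUSG00000056501, chr2:167688915-167690418, plus strand), a bZIP factor that dimerises with Atf4 and CHOP and is active in many inflammatory and differentiation programmes, was the only member called. It measured 41.0, 60.4, 61.9, 37.6, 52.2, 78.2 and 43.6 CPM in control eyes 1 to 7 (53.5 ± 14.3, mean ± SD, n = 7) and 155, 73.6, 132, 63.5, 108, 102 and 129 CPM in Nrf2 eyes (109 ± 32.8). The Nrf2 eye was the higher one in 7 of 7 mice, and Nrf2 eyes of 5 mice lay above the highest control eye, with Nrf2 2 and Nrf2 4 inside the control range. The log2 fold change was 1.01 (SE 0.20, 95% interval 0.55 to 1.47, adjusted p 0.0345 by edgeR). The value was 1.04 without mice 3 and 4, but the call did not hold (adjusted p 0.0745, where 4.51% of genes were called), nor did it without mouse 1 (0.86, adjusted p 0.0872), mouse 3 (1.01, 0.111), mouse 5 (1.00, 0.0976) or mouse 7 (0.91, 0.123). Fewer of all genes were called in these fits as well. Without mouse 1, 3, 5 or 7 they were 143 of 16229, 164 of 16300, 155 of 16314 and 111 of 16293. With all mice 559 of 16289 were called. Summed macrophage and microglia markers were 118, 247 and 361 CPM (lowest, median, highest) in control and 130, 147 and 586 CPM in Nrf2 eyes, with 0 of 8 past the threshold and none at 0 in any library. By single genes 7 of the 8 markers were above 0 and 1 below, with a median log2 fold change of 0.82. Csf1r, at 51.5 to 226.8 CPM across all libraries, had a log2 fold change of -0.76 (adjusted p 0.14). The complement gene C1qa, at 4.75 to 120.5 CPM, had 1.51 (adjusted p 0.304). Both are named after their values were seen. The sums were 147, 130, 146, 362, 146, 430 and 586 CPM in Nrf2 eyes 1 to 7. The lowest sum stood beside 73.6 CPM of Cebpb and the highest beside 129 CPM. The highest Cebpb value (155 CPM, Nrf2 1) stood beside a sum of 147 CPM, and the lowest (63.5 CPM, Nrf2 4) beside 362 CPM. The part of macrophage RNA in the Cebpb values was not tested.

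The other regulators had lower counts or larger spread. Atf3, a stress-induced partner, had control eyes at 2.43, 3.22 and 6.46 CPM (lowest, median, highest) and Nrf2 eyes at 2.93, 5.37 and 6.74 CPM (log2 fold change 0.56, SE 0.24, adjusted p 0.267). Atf5, a related factor that is also controlled by translation, had 0.04 (SE 0.31, adjusted p 0.962). Nupr1, a small chromatin protein induced by Atf4, had -0.15 with an SE of 0.50 (adjusted p 0.91). It measured 53.1, 15.3, 42.4, 37.6, 40.5, 12.6 and 42.8 CPM in control eyes 1 to 7 and 17.5, 51.6, 16.8, 39.1, 16.8, 47.0 and 36.5 CPM in Nrf2 eyes. The 14 libraries fell into separate ranges, 5 libraries at 12.6 to 17.5 CPM (control 2, control 6, Nrf2 1, Nrf2 3 and Nrf2 5) and 9 at 36.5 to 53.1 CPM, and both ranges held libraries of both groups.

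**Figure D2:**
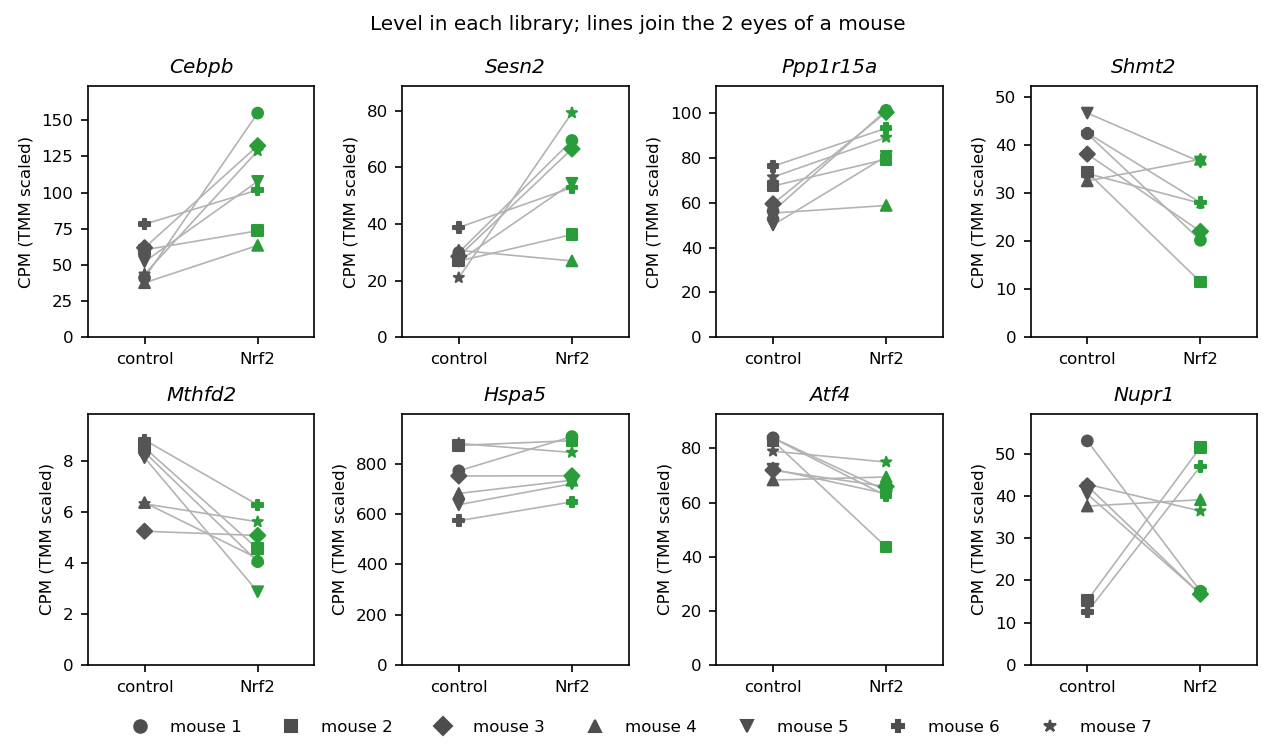
Level of 8 genes in each of the 14 libraries in TMM-scaled CPM (linear axes from 0), control eyes in grey and Nrf2 eyes in green, with a line joining the eyes of a mouse and a symbol for each mouse. Cebpb and Ppp1r15a lie above the control eye in each of the 7 mice and Mthfd2 lies below it in each, Hspa5 lines run almost flat, and Nupr1 lines cross between the separate ranges.

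Of the 7 target genes 0 passed in the edgeR fit, and the pair nearest to the threshold were genes of feedback and of nutrient control. Ppp1r15a (GADD34; ENSMUSG00000040435, chr7:45522916-45526268, minus strand), which brings a phosphatase to eIF2 and so reverses its phosphorylation, measured 56.2, 67.5, 59.5, 55.4, 50.1, 76.3 and 71.4 CPM in control eyes 1 to 7 and 101, 79.4, 100.3, 58.8, 80.7, 93.2 and 89.1 CPM in Nrf2 eyes. All 7 mice had more of it in the Nrf2 eye, and 6 Nrf2 eyes lay above the highest control eye, with Nrf2 4 inside the control range. The fitted change was 0.46 on the log2 scale (SE 0.12, 95% interval 0.20 to 0.73, adjusted p 0.0717). Sesn2, a stress-induced inhibitor of mTORC1 and a leucine sensor, measured 29.9, 26.9, 28.5, 30.7, 26.9, 38.7 and 21 CPM in control and 69.5, 36.2, 66.5, 26.9, 54.3, 52.8 and 79.2 CPM in Nrf2 eyes. Nrf2 eyes of 5 mice lay above every control eye, and mouse 4 alone went the other way. In the fit Sesn2 had 0.87 on the log2 scale (SE 0.23, 95% interval 0.34 to 1.40, adjusted p 0.0905).

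The call of both genes depended on the fit. Without mouse 4, where 12.2% of genes were called, Sesn2 had 1.04 (adjusted p 0.0163) and Ppp1r15a 0.52 (adjusted p 0.0237), and Cebpb and Shmt2 were called as well. Without mice 3 and 4 Sesn2 had 1.01 (adjusted p 0.0599) and Ppp1r15a 0.48 (adjusted p 0.0927). Both were called without the mouse block (6.75% of genes called), by DESeq2 (11.9% called) and by limma voom with quality weights (15.9% called), tools that called more of all genes as well.

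Asns, asparagine synthetase and a standard readout of Atf4, had the lowest value of the 39 genes, at a log2 fold change of -1.08, with the widest interval (SE 0.58, 95% interval -2.41 to 0.25, adjusted p 0.368). It measured 21, 6.28, 4.25, 17.4, 8.23, 4.66 and 3.78 CPM in control eyes 1 to 7 and 2.50, 9.96, 2.18, 3.06, 1.53, 4.17 and 6.89 CPM in Nrf2 eyes. Control 1 and control 4 stood high, and these libraries also had the highest summed cone markers (846 and 918 CPM) and rod markers (407 and 307 CPM). Among Nrf2 eyes Nrf2 2 was highest for Asns, for cones (94.9 CPM) and for rods (79.5 CPM), while Nrf2 7 had 6.89 CPM of Asns beside the lowest cone sum (18.4 CPM). The part of photoreceptor RNA in the Asns values was not tested.

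**Figure D3:**
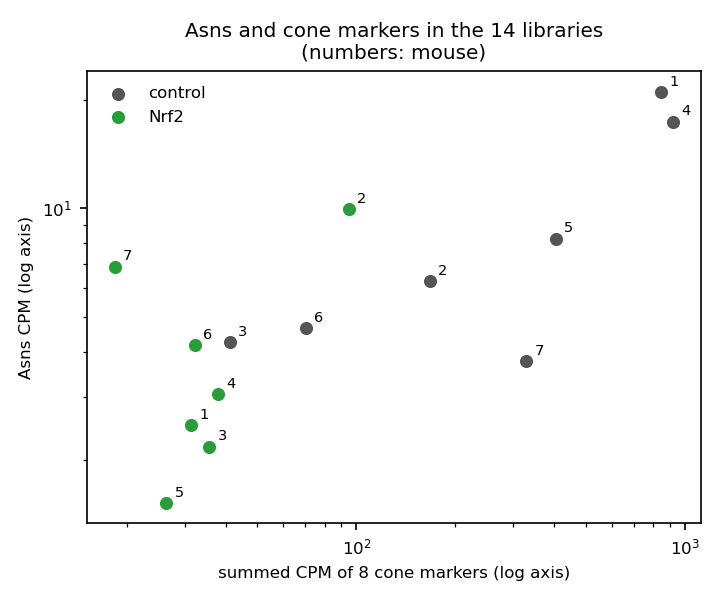
Asns level against the summed level of 8 cone marker genes in each of the 14 libraries (CPM, both axes on a log scale), control eyes in grey and Nrf2 eyes in green, numbered by mouse. Control 1 and control 4 lie at the top right, with Asns at 21 and 17.4 CPM, and Nrf2 7 lies apart at the lowest cone sum.

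The remaining targets did not pass and had values near 0 for their spread. Trib3, a pseudokinase that feeds back on Atf4, had control eyes at 1.82, 3.05 and 4.04 CPM (lowest, median, highest) and Nrf2 eyes at 0.501, 3.64 and 7.97 CPM (log2 fold change 0.27, SE 0.49, adjusted p 0.813), with Nrf2 2 lowest and Nrf2 7 highest. Ddit4 (REDD1), another mTORC1 inhibitor, had -0.03 (adjusted p 0.947). Vldlr, a lipoprotein receptor induced by Atf4, had 0.19 (adjusted p 0.681), and Slc7a5, the large neutral amino acid transporter, had 0.12 (adjusted p 0.739). Control 5 was lowest for both Vldlr (27.1 CPM) and Slc7a5 (113 CPM), and the same library had the lowest summed RPE markers.

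Of the 5 enzymes of serine and one-carbon metabolism 0 passed, with a median of -0.28. Phgdh, Psat1 and Psph make serine from a glycolytic intermediate in the cytosol, and Shmt2 and Mthfd2 use it in mitochondria. Phgdh (ENSMUSG00000053398, chr3:98313170-98339990, minus strand), the first enzyme, measured 346, 404, 352, 404, 284, 361 and 395 CPM in control eyes 1 to 7 and 288, 227, 337, 363, 302, 296 and 286 CPM in Nrf2 eyes. It was lower in 6 of 7 Nrf2 eyes with overlapping ranges (log2 fold change -0.28, SE 0.13, adjusted p 0.285). A pseudogene of Phgdh exists, and estimated counts can divide reads between the copies. Psat1 (ENSMUSG00000024640, chr19:15904678-15947337, minus strand), the next enzyme, measured 114, 98.8, 129, 118, 121, 106 and 135 CPM in control and 112, 116, 115, 135, 116, 150 and 104 CPM in Nrf2 eyes. The groups shared one range (log2 fold change 0.05, SE 0.12, 95% interval -0.22 to 0.31, adjusted p 0.869).

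Psph (ENSMUSG00000029446, chr5:129765558-129787449, minus strand), the last enzyme of the chain, measured 23.4, 21.2, 20.5, 22.1, 20.2, 28.9 and 19.7 CPM in control eyes 1 to 7 and 35.1, 22.3, 32.3, 21, 24.5, 27.9 and 36.3 CPM in Nrf2 eyes. Nrf2 1, Nrf2 3 and Nrf2 7 lay above every control eye and the rest overlapped (log2 fold change 0.34, SE 0.15, adjusted p 0.265). Voom called it at 0.51 (adjusted p 0.0237), and DESeq2 did not at 0.36 (adjusted p 0.178).

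Shmt2 (ENSMUSG00000025403, chr10:127517123-127522444, minus strand), the mitochondrial enzyme that splits serine into glycine and a one-carbon unit, measured 42.4, 34.4, 38.2, 32.6, 46.7, 42.6 and 34.1 CPM in control eyes 1 to 7 and 20.2, 11.5, 22.1, 37.1, 36.5, 28.1 and 27.9 CPM in Nrf2 eyes. Nrf2 eyes of 5 mice lay below every control eye, Nrf2 2 lay lowest, and mouse 4 alone went the other way. On the log2 scale the change was -0.64 (SE 0.20, 95% interval -1.09 to -0.19, adjusted p 0.136), and -0.77 without mice 3 and 4 (adjusted p 0.095). Without mouse 4 it was called at -0.77 (adjusted p 0.03), as it was by DESeq2 and voom.

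Mthfd2 (ENSMUSG00000005667, chr6:83305691-83325908, minus strand), the mitochondrial enzyme of the following step, measured 8.36, 8.53, 5.25, 6.38, 8.14, 8.84 and 6.33 CPM in control eyes 1 to 7 and 4.05, 4.56, 5.08, 4.18, 2.88, 6.28 and 5.62 CPM in Nrf2 eyes. It was lower in the Nrf2 eye of 7 of 7 mice, by little in mouse 3, and Nrf2 eyes of 5 mice lay below the lowest control eye. The fit gave a log2 change of -0.68 (SE 0.23, 95% interval -1.21 to -0.15, adjusted p 0.173), and -0.82 without mice 3 and 4 (adjusted p 0.171). DESeq2 called it at -0.66 (adjusted p 0.0336), and voom did not at -0.63 (adjusted p 0.0875). The values for serine synthesis itself thus stood at -0.28, 0.05 and 0.34, and those for these 2 mitochondrial enzymes at -0.64 and -0.68. Of 12 other serine and one-carbon genes 6 were above 0 and 6 below. Among these, the mitochondrial Mthfd1l had 0.82 in the edgeR fit (adjusted p 0.223).

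**Figure D4:**
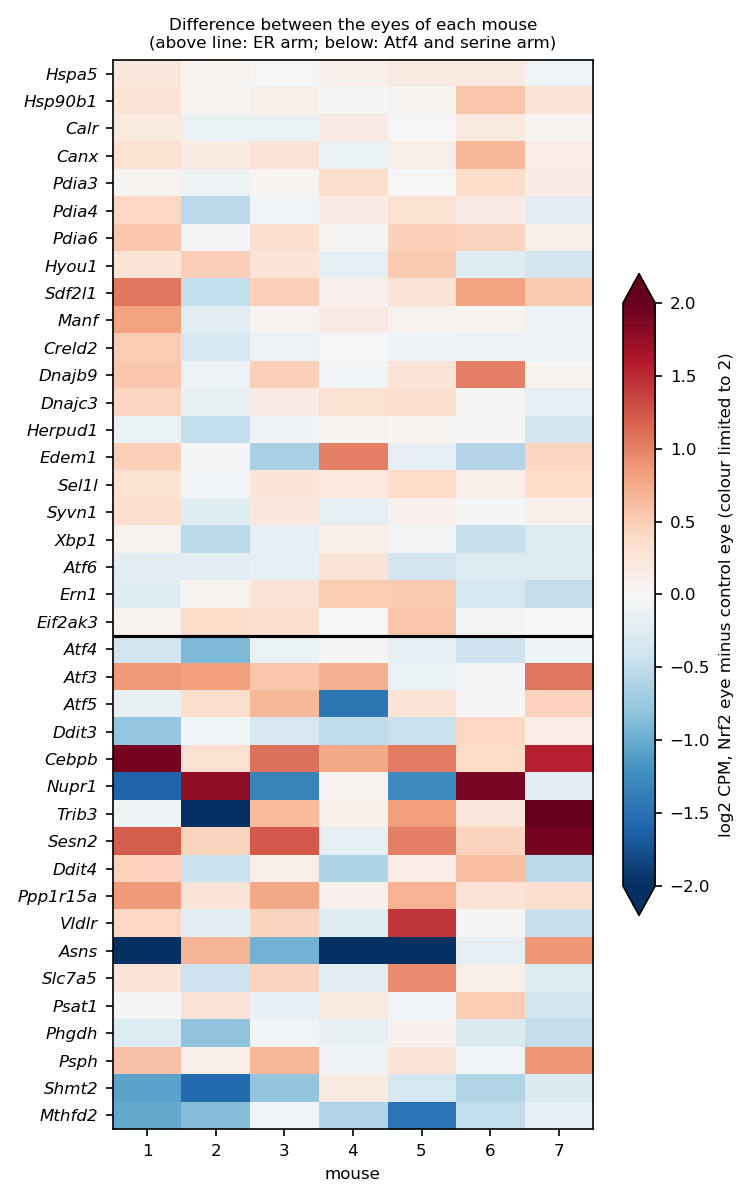
Difference in log2 CPM, Nrf2 eye minus control eye, for each of the 39 genes (rows) in each of the 7 mice (columns), red where the Nrf2 eye was higher and blue where it was lower, with the colour limited to 2 either way and a black line between the arms. The ER rows above the line are pale, and the Atf4-arm rows below it are darker and of both colours, with Cebpb red in all 7 columns.

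Set side by side in each mouse, the arm means lay within 0.36 of 0. The mean log2 difference (Nrf2 minus control eye) over the ER genes was 0.30, -0.12, 0.09, 0.14, 0.17, 0.12 and -0.01 in mice 1 to 7, with a mean of 0.10 ± 0.13 (SD, n = 7). Over the Atf4-arm genes it was -0.10, -0.14, 0.16, -0.25, 0.02, 0.16 and 0.36, with a mean of 0.03 ± 0.21 (SD, n = 7). The ER mean was above 0 in 5 mice and the Atf4 mean in 4 mice. In mice 1 and 4 the ER mean was above 0 and the Atf4 mean below it, and in mouse 7 the order was the other way. Without mice 3 and 4 the medians over genes were 0.10 in the ER arm and 0.11 in the Atf4 arm, and 0 members were called.

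Outside the 39 genes, 82 further genes of the same pathways from a fixed list were all tested, and 6 of them passed, all higher in Nrf2 eyes (7.32%, median 0.04 over the 82). The share called over all genes tested was 3.43%, and 2.94% called higher. Of 18 other Atf4 targets, 4 rose (22.2%) and 0 passed in the other direction, with 7 above 0, 11 below 0 and a median of -0.11. At an unadjusted p under 0.05 but not past the threshold, 5 of these targets had negative values, which were -0.42 for Pck2 (lower in 7 of 7 mice, adjusted p 0.119), -1.31 for Chac1 (0.21), -0.50 for Slc7a1 (0.189), -0.44 for Cebpg (0.261) and -1.87 for Stc2 (0.25), named here after their values were seen. DESeq2 and voom each called Pck2, Chac1 and Stc2 lower. Stc2 was scarce, at a mean of 1.30 CPM with 0 CPM in Nrf2 2, and its edgeR SE was 0.78. Slc1a4, a transporter of serine and other small neutral amino acids, was at 8.38 to 42.5 CPM in control and 42.8 to 592 CPM in Nrf2 eyes (log2 fold change 3.90, SE 0.48, adjusted p 0.00936). Slc7a11, the cystine transporter subunit that is also a standard Nrf2 target, was at 14.6 to 65.2 CPM and 65.4 to 428 CPM (2.68, SE 0.33, adjusted p 0.00936). Gdf15, a secreted stress cytokine, was at 1.39 to 4.53 CPM and 4.79 to 33.8 CPM (2.45, SE 0.34, adjusted p 0.011). These 3 of the 82 were the ones whose groups did not overlap, against 1.56% of all genes tested. The gap between the groups was small, and in each gene it lay between control 3 and Nrf2 4. These libraries had 42.5 and 42.8 CPM of Slc1a4, 65.2 and 65.4 CPM of Slc7a11, and 4.53 and 4.79 CPM of Gdf15. Eif4ebp1, an inhibitor of cap-dependent translation, was at 21.4 ± 7.92 CPM (mean ± SD) in control and 52.7 ± 20.2 CPM in Nrf2 eyes (1.31, SE 0.25, adjusted p 0.0288), and its groups overlapped.

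The other lists had medians of -0.01 to 0.20. Of 11 genes of eIF2, its kinases and its exchange factor, Eif2ak4 (GCN2), the kinase that senses uncharged tRNA, rose by 0.70 (SE 0.14, adjusted p 0.0321), and the exchange factor subunit Eif2b3 had 0.28 (adjusted p 0.357). Of 11 cytosolic tRNA synthetases, several of which are Atf4 targets, Iars rose by 0.61 (SE 0.12, adjusted p 0.032), and Mars had -0.17 (adjusted p 0.419). Of 16 other ER folding and export genes 0 passed with a median of 0.20, with Sil1, a BiP exchange factor, at 0.64 (adjusted p 0.0569) and Dnajc10, a BiP-dependent reductase, at 0.32 (adjusted p 0.36). Of 14 other ER degradation and sensing genes 0 passed with a median of 0.01, with the ER lectins Os9 and Edem2 at 0.52 (adjusted p 0.0604) and 0.45 (adjusted p 0.0969). Of 12 other serine and one-carbon genes 0 passed with a median of 0.04, with Mthfd1l, of mitochondrial formate release, at 0.82 (adjusted p 0.223) and Aldh1l1, a cytosolic folate enzyme, at 0.74 (adjusted p 0.0667).

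Without mice 3 and 4 the calls of Slc1a4 (4.49, adjusted p 0.00404), Slc7a11 (3.10, adjusted p 0.00356) and Gdf15 (2.86, adjusted p 0.00382) held. Those of Eif2ak4 (0.77, adjusted p 0.0536), Eif4ebp1 (1.25, adjusted p 0.0803) and Iars (0.68, adjusted p 0.0535) did not. In that fit Sil1 passed at 0.77 (adjusted p 0.0224), and 2 Atf4 targets passed in the other direction, the glutathione-degrading enzyme Chac1 at -1.71 (adjusted p 0.0344) and the bZIP factor Jdp2 at -1.24 (adjusted p 0.0494). These last 3 are named after their values were seen.

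Within the 7 Nrf2 eyes, the level of each gene was also fitted against the vector transcript, an analysis chosen after the data were seen. Of 14121 genes tested 228 passed (1.61%), and 0 of the 39 members did. The 3 smallest adjusted p-values of the members belonged to Sesn2, with 0.49 log2 units per doubling of the vector transcript (SE 0.10, adjusted p 0.0726), Ppp1r15a with 0.26 (SE 0.05, adjusted p 0.0782) and Cebpb with 0.38 (SE 0.09, adjusted p 0.124). Without the library labelled Nrf2 4, which had the lowest vector transcript, 0 of 14366 genes passed (0.0%), with 1486 at an unadjusted p under 0.05, and the slopes were 0.64 for Sesn2 (SE 0.29, adjusted p 0.54), 0.21 for Ppp1r15a (SE 0.17, adjusted p 0.852) and 0.59 for Cebpb (SE 0.27, adjusted p 0.552). The small adjusted p-values with all 7 eyes therefore rest on 1 library.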

How the data were processed

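RNA was measured in 14 RPE libraries, 7 pairs of eyes. The authors purified RPE RNA from the eyecup, amplified it with a low-input kit and, per the labels, ran the libraries in separate sequencing runs that are not assigned to samples, so runs could not be compared. What the authors deposited are estimated counts, 1 value per gene and library, given as whole numbers without normalization between libraries. The submitters' processing notes name Salmon 0.9.1, and the study's methods give mm10 with Ensembl release 91. Which tool made the table was inferred, and models of this kind divide reads among near-identical copies. The row of the vector transcript was kept apart from the mouse genes in all counts.

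Genes were tested with edgeR 4.0.16 (quasi-likelihood F-test) in R 4.3.3. The model held a term per mouse and one for Nrf2, libraries were TMM scaled, and filterByExpr kept genes at a minimum count of 10. Benjamini-Hochberg adjustment ran over all 16289 genes so kept, and 0.05 was the threshold. The 7 mice leave 6 residual degrees of freedom, and 2.68 were added by the prior. The 7 pairs are separate animals, and all were used, although the study's methods give 1 pair fewer at this age than the labels and do not say which. SEs come from the F statistic. CPM are counts per 1000000 of the TMM-scaled library, and within-mouse differences use log2 CPM with a prior count of 2. Alternatives were DESeq2 1.42.0, limma 3.58.1 (voom with quality weights), other scalings, other filters, no mouse block, each mouse left out and mice 3 and 4 left out. Scripts were tested on simulated data. Depths were 16548349 to 50543008 counts, and since reads were amplified and carried no molecular identifiers, they are not independent.

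Pairing is given by the labels, which number both eyes of an animal alike. The correlation between the deviations of the eyes of a mouse from their group means, over 14940 genes, was 0.00, 0.08, 0.05, -0.34, 0.35, -0.18 and 0.16 in mice 1 to 7. Since these values lay on both sides of 0, they do not themselves show the pairing, which rests on the labels.

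The members and gene lists were chosen with earlier results of these data known, so no test over the members was made and no list is independent support. Positions and exon lengths are from GENCODE M21 (GRCm38), promoter windows from RefSeq. All 39 members were named. Values in every library are given for the called member, the smallest p of each of the 6 roles, and for Atf4, Ddit3, Hspa5, Xbp1, Phgdh, Psat1, Psph, Shmt2 and Mthfd2. Further pathway genes are named where they passed, with the 2 largest absolute changes per list at a mean of at least 5 CPM. Sesn2, Asns and Nupr1 are given in every library after their values were seen. Of 7 further marker lists (Muller glia, inner retinal neurons, endothelium, fibroblasts, plasma cells, skeletal muscle and blood) 0 genes passed, and their median log2 fold changes were -0.68, -0.20, -0.13, 0.33, -0.73, -0.37 and -0.77.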

Additional observations from a re-analysis of the deposited data

Results flagged for a closer look

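In 80 groups of 7 libraries (each of the 39 genes and the vector transcript in both groups), 7 had a library set apart from the other 6 by Dixon's test at the 95% level (critical value 0.568), where chance gives about 4. Nrf2 2, the library of lowest depth, was lowest of the Nrf2 eyes for Atf4 (43.6 CPM) and for Trib3 (0.501 CPM). Control 5, the library with the lowest summed RPE markers, was lowest of the control eyes for Vldlr (27.1 CPM) and Slc7a5 (113 CPM). Control 6 was lowest for the ER chaperone Hsp90b1 (358 CPM) and highest for Atf3 (6.46 CPM). The library labelled Nrf2 4 was lowest of the Nrf2 eyes for the vector transcript NFE2L2 (1146 CPM).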

How the results depend on the processing

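The count of genes past the threshold (559 of 16289) was 1100 with no replicate block, 1943 with DESeq2, 2592 with voom, 347 with no filter, and 111 to 1998 when each mouse was left out (1998 without mouse 4). In the ER arm 0 members were called in each edgeR fit, 1 by DESeq2 (Sel1l) and 3 by voom (Pdia6, Sdf2l1 and Sel1l). In the Atf4 arm 3 were called with no replicate block (Cebpb, Ppp1r15a and Sesn2), 5 by DESeq2 (Cebpb, Ppp1r15a and Sesn2 higher, Shmt2 and Mthfd2 lower), 5 by voom (Cebpb, Ppp1r15a, Sesn2 and Psph higher, Shmt2 lower), 0 with no filter, 0 without mice 3 and 4, and 0 to 4 with each mouse left out. Of the further pathway genes 11 were called with no replicate block, 15 by DESeq2 (3 of them lower), 16 by voom (3 lower) and 3 to 13 with each mouse left out (2 lower, Chac1 and Jdp2, without mouse 4). Other scalings and a filter on a mean of 10 counts kept 1 called member, Cebpb. Median fold changes stayed at 0.08 to 0.14 in the ER arm and -0.01 to 0.12 in the Atf4 arm.

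Signs turned in 29 cases, in 12 members, none of which was called in any fit. With each mouse left out the ranges that cross 0 were Pdia4 -0.03 to 0.13, Creld2 -0.13 to 0.01, Edem1 -0.09 to 0.20, Syvn1 -0.01 to 0.08, Ern1 -0.04 to 0.13, Atf5 -0.05 to 0.27, Nupr1 -0.50 to 0.12, Trib3 -0.04 to 0.62, Ddit4 -0.15 to 0.06, Vldlr -0.01 to 0.30, Slc7a5 -0.01 to 0.21 and Psat1 -0.04 to 0.12. Without mice 3 and 4 the sign also turned for Ern1 (-0.10), Nupr1 (0.09) and Ddit4 (0.05), with voom Edem1 (-0.08), Ddit4 (0.01) and Psat1 (-0.06), and with no replicate block Edem1 (-0.02). The causes were not tested. Trib3 had as few as 9 counts in a library.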
